A study of Mus musculus with 2 samples.

Results

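The 10 genes described here carry oxygen sensing and the response to low oxygen: the hypoxia-inducible factor (HIF) subunits Hif1a, Epas1 and Arnt, the oxygen-dependent hydroxylases Egln1, Egln2, Egln3 and Hif1an, the ubiquitin ligase subunit Vhl, and the HIF-induced genes Vegfa and Ddit4. They were chosen by name as a pathway set, with earlier results of these data known. Their identifiers were found in the gene tables, 10 of 43346 annotated genes. RNA came from G1E, an immortalised erythroid progenitor line of a male mouse at postnatal day 0, labelled Gata1-. Poly(A)-selected RNA was sequenced from 1 end in 2 libraries, labelled biological replicates 1 and 2 of the same biosample. There was 1 group, with no treatment and no oxygen level in the labels, so no conditions were compared. The labels name no separate cultures behind the replicates, and the spread between libraries may be technical. As 1 line in culture, G1E cells stand for no range of animals.

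HIF is a dimer of an alpha subunit, made from Hif1a, Epas1 or Hif3a, and the constant subunit ARNT, and it switches on genes of glycolysis, vessel growth and iron supply. In the presence of oxygen, the EGLN enzymes hydroxylate prolines of the alpha subunit, the VHL protein binds the hydroxylated form, and the ligase around VHL marks it for destruction. HIF1AN hydroxylates an asparagine of the alpha subunit and blocks its contact with coactivators. Most of this control acts on protein, whereas the values below are RNA levels.

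The EGLN enzymes act on a proline within the amino acid pattern LXXLAP, in which X is any residue, and the coding sequences that carry this pattern are shown because the transcripts of the alpha subunits differed in whether they hold it. Each is printed 5′ to 3′ from the GENCODE M21 transcripts of GRCm38, with the 6 codons that match the pattern in capitals and 21 bases on either side.
Hif1a-201, proline codon 402: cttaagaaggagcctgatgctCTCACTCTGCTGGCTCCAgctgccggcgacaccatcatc
Hif1a-201, proline codon 577: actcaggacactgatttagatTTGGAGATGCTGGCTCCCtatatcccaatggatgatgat
Epas1-201, proline codon 405: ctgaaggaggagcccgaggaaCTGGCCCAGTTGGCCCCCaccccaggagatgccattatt
Epas1-201, proline codon 530: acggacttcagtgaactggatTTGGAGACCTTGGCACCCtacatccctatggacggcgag
Hif3a-202, proline codon 489: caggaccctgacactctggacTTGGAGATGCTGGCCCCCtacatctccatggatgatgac
Hif1a-201 and Epas1-201 held 2 matches each, and Hif3a-202 held 1. The short transcript Hif1a-203, of 258 coding codons, held 0 matches, against 836 codons and 2 matches in Hif1a-201.

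Replicate 1 held 31633573 expected counts (estimated reads per gene) and replicate 2 held 56978193. Levels are in TPM, which are counts divided by effective transcript length and scaled to the same fixed total in each library. Protein-coding genes took 84.4% of TPM in replicate 1 and 75.1% in replicate 2, and the implied read lengths were 36 and 55 nt. All 12 erythroid markers, such as Klf1, Epor and Tfrc, reached 1 TPM in both libraries, against 0 of 8 endothelial, 1 of 8 macrophage and 0 of 6 fibroblast markers. Gata1 RNA had 88.2 TPM in replicate 1 and 61.4 TPM in replicate 2, which checks the label only if the reads fall in the part of the gene that was disrupted, and this cannot be read from gene totals.

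G1E cells held RNA for each step of the pathway: the alpha subunit Hif1a and its partner Arnt, 2 of the 3 EGLN enzymes, Hif1an, Vhl and both induced genes. Of the 10 genes, 8 reached 1 TPM in both libraries and 2, Epas1 and Egln3, stayed under 1 TPM in both; among the 21474 protein-coding genes 42.5% reached 1 TPM in both. The median over the 10 genes was 15.2 TPM, beside 0.365 TPM over all protein-coding genes and 23.5 TPM over the expressed ones. Mean levels of the 8 expressed genes spanned 9.01 to 70.6 TPM.

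**Figure D1:**
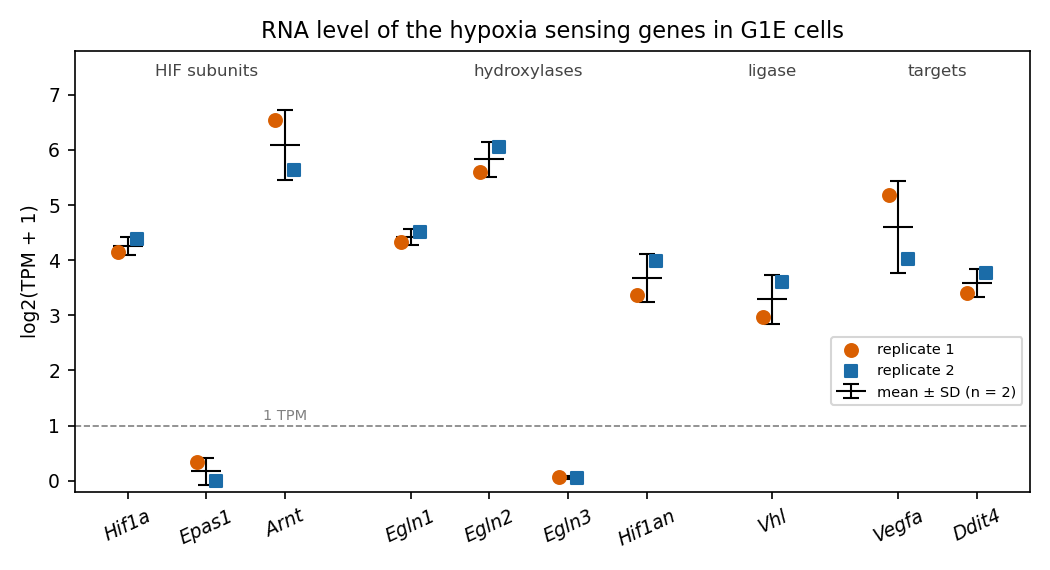
RNA level of each of the 10 genes as log2(TPM + 1) in replicate 1 (circles) and replicate 2 (squares), with the mean ± SD of the 2 libraries as black bars and 1 TPM as a dashed line. Epas1 and Egln3 lie below the dashed line in both libraries, and Arnt and Vegfa show the widest gaps between libraries among the 8 expressed genes.

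Among the HIF subunits, Hif1a was the expressed alpha subunit of the pair Hif1a and Epas1. Hif1a (ENSMUSG00000021109.9, GRCm38 chr12:73901375-73947530, plus strand), which encodes the oxygen-regulated HIF-1 alpha protein, had 16.7 TPM from 1123 counts in replicate 1 and 19.8 TPM from 3959 counts in replicate 2. Its mean of 18.3 ± 2.23 TPM (SD, n = 2) lay at percentile 75.7 of protein-coding genes. The libraries lay close on this scale, but 6.46% of the 36-base words of Hif1a transcripts also occur in Gm15283 or Gm49321. Gm15283 overlaps Hif1a on the opposite strand and had 0.39 TPM in replicate 1 and 0.25 TPM in replicate 2. Gm49321, annotated as protein-coding, overlaps Hif1a on the same strand and had no level of its own in either library. Whether counting used strand is not given in the sources used here, and strand would not separate Gm49321 from Hif1a. Reads of these overlapping genes may thus not have been told apart.

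Epas1 (ENSMUSG00000024140.9, GRCm38 chr17:86753700-86833410, plus strand) encodes HIF-2 alpha, the alpha subunit known for vessel endothelium and for the control of erythropoietin. It had 33 counts in replicate 1, which is 0.27 TPM with an exact Poisson interval of 0.18 to 0.38 TPM at 95%. Replicate 2 had 0 counts, for which the same interval reaches 3.69 counts, or 0.015 TPM. These limits cover counting error only. The libraries therefore differed by more than counting error, although both stayed low. Of the 7728 protein-coding genes with 0 counts in replicate 2, 4798 had a count in replicate 1. The median of all 7728 in replicate 1 was 0.04 TPM, the 90th percentile was 0.34 TPM, and Epas1 lay above 86.5% of them. The 8 endothelial markers summed to 2.47 TPM in replicate 1 and 0.660 TPM in replicate 2, with none of the 8 at 0 counts in both. The fibroblast markers were also higher in replicate 1, summing to 1.36 TPM there and 0.030 TPM in replicate 2. Whether the endothelial markers and Epas1 came from the same source was not tested.

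Set against Hif1a, Epas1 was lower by a difference of -4.09 ± 0.41 on the log2(TPM + 1) scale (mean ± SD, n = 2), with -3.80 in replicate 1 and -4.38 in replicate 2. A bound for such differences is 1.23, the normal-theory half-width at 95% for a mean of 2 libraries, from the SD between libraries of 0.63 pooled over 10469 expressed genes. Epas1 lay beyond it, and the pseudocount of 1 understates the difference for so low a gene. No p is given for single pairs, since an exact sign-flip permutation test over 2 libraries cannot give a two-sided p under 0.5.

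Arnt (ENSMUSG00000015522.14, GRCm38 chr3:95434388-95497240, plus strand), the constant partner of the alpha subunits and also of the aryl hydrocarbon receptor, was the most abundant of the 10 by mean level. It had 92.3 TPM from 6374 counts in replicate 1 and 49.0 TPM from 8106 counts in replicate 2, a mean of 70.6 ± 30.6 TPM (SD, n = 2) at percentile 91.2. Arnt was therefore high in both libraries but uneven between them. Arnt exceeded Hif1a by 1.83 ± 0.80 on the log2(TPM + 1) scale (2.40 in replicate 1, 1.26 in replicate 2), beyond the bound of 1.23. From replicate 2 alone the difference of 1.26 fell short of the wider bound that a single library needs.

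Of the relatives of these subunits, Arnt2 was nearly absent, Arntl was low and Hif3a was as high as Arnt. Arnt2, a partner known mainly from nervous tissue, had 8 counts (0.060 TPM) in replicate 1 and 0 counts in replicate 2, below Arnt by -6.05 ± 0.58 on the log2(TPM + 1) scale (n = 2). Arntl, the clock factor BMAL, averaged 6.29 ± 0.361 TPM (SD, n = 2). Hif3a, an alpha subunit whose shorter forms can restrain the other alpha subunits, had 97.0 TPM from 9709 counts in replicate 1 and 52.1 TPM from 10981 counts in replicate 2. It thus lay near Arnt and above Hif1a in each library, by 1.91 ± 0.79 on the log2(TPM + 1) scale (n = 2), although from replicate 2 alone the difference of 1.35 was within the single-library bound. The transcript Hif3a-202 (6402 nt) took 56.0% of Hif3a TPM in replicate 1 and 66.6% in replicate 2.

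Of the hydroxylases, Egln2 led in both libraries. Egln2 (ENSMUSG00000058709.7, GRCm38 chr7:27158658-27166802, minus strand), a prolyl hydroxylase also known as PHD1, had 47.4 TPM from 2145 counts in replicate 1 and 65.6 TPM from 5961 counts in replicate 2. Its mean of 56.5 ± 12.9 TPM (SD, n = 2) lay at percentile 89.1. Its exons overlap those of Cyp2t4 on the opposite strand, which had 0.35 TPM in replicate 1 and 0.13 TPM in replicate 2.

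Egln1 (ENSMUSG00000031987.5, GRCm38 chr8:124908587-124949324, minus strand) encodes PHD2, the enzyme that sets HIF-1 alpha levels in most cells at normal oxygen. It had 19.0 TPM from 1546 counts in replicate 1 and 21.9 TPM from 3438 counts in replicate 2, a mean of 20.5 ± 2.04 TPM (SD, n = 2) at percentile 77.1. The libraries were close, and Egln1 lay below Egln2 in each, by a difference of -1.41 ± 0.19 on the log2(TPM + 1) scale (n = 2). This passed the bound of 1.23 over 2 libraries, but either library alone (-1.27 in replicate 1, -1.54 in replicate 2) fell within the single-library bound.

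Egln3 (ENSMUSG00000035105.5, GRCm38 chr12:54178981-54203860, minus strand) encodes PHD3, which is itself induced by HIF in many cells. It had 3 counts in each library, 0.050 TPM in replicate 1 and 0.030 TPM in replicate 2, with an exact Poisson interval of 0.619 to 8.77 counts at 95%. Both libraries were at 3 counts, the floor set here, which is under the 3.69 counts that the same interval allows for a count of 0. Egln3 RNA was thus hardly detectable at this depth. Against Egln2 its difference was -5.77 ± 0.35 and against Egln1 -4.36 ± 0.16 on the log2(TPM + 1) scale (n = 2 each), both beyond the bound.

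Hif1an (ENSMUSG00000036450.4, GRCm38 chr19:44562850-44576274, plus strand), the asparagine hydroxylase also called FIH, had 9.38 TPM from 1229 counts in replicate 1 and 14.9 TPM from 4102 counts in replicate 2. Its mean was 12.1 ± 3.90 TPM (SD, n = 2) at percentile 70.9, and it was lower than Egln1 in each library. That difference, -0.74 ± 0.30 on the log2(TPM + 1) scale (n = 2), was within the bound.

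Vhl (ENSMUSG00000033933.9, GRCm38 chr6:113623959-113631633, plus strand), which encodes the subunit that recognises hydroxylated HIF alpha, had 6.86 TPM from 442 counts in replicate 1 and 11.2 TPM from 1300 counts in replicate 2. Its mean of 9.01 ± 3.03 TPM (SD, n = 2), at percentile 67.7, was the lowest of the 8 expressed genes. Vhl was below Egln1 in each library, by -1.13 ± 0.31 on the log2(TPM + 1) scale (n = 2), which was within the bound of 1.23 and beyond a bound of 0.98 from a robust estimate of the spread.

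The rest of the ligase around VHL was more abundant than Vhl itself by mean TPM. All 6 listed ligase genes, Vhl included, reached 1 TPM in both libraries, against 42.5% of protein-coding genes, and their median was 65.9 TPM. The adaptor Elob averaged 393 ± 114 TPM, the ubiquitin-like modifier Nedd8, which activates cullins, 222 ± 29.0 TPM, and the RING subunit Rbx1 43.2 TPM in each library (n = 2). The other adaptor, Eloc, had 28.3 TPM in replicate 1 and 149 TPM in replicate 2, a mean of 88.6 ± 85.3 TPM (SD, n = 2), so its rank within the ligase differed between the libraries.

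Both HIF-induced genes were expressed at middling levels. Vegfa (ENSMUSG00000023951.12, GRCm38 chr17:46016993-46032369, minus strand), the growth factor for vessel endothelium, had 35.5 TPM from 1145 counts in replicate 1 and 15.2 TPM from 1720 counts in replicate 2. Replicate 1 was the higher, and the mean was 25.4 ± 14.3 TPM (SD, n = 2) at percentile 79.7. Ddit4 (ENSMUSG00000020108.3, GRCm38 chr10:59949669-59951834, minus strand), which encodes the mTORC1 inhibitor REDD1, had 9.60 TPM from 370 counts in replicate 1 and 12.6 TPM from 928 counts in replicate 2. Its mean was 11.1 ± 2.09 TPM (SD, n = 2) at percentile 69.9, and its libraries were close. Ddit4 lay below Vegfa in each library, but the difference of -1.02 ± 1.08 on the log2(TPM + 1) scale (n = 2) was within the bound of 1.23, with -1.79 in replicate 1 and -0.26 in replicate 2. It was beyond the robust bound of 0.98, and replicate 1 alone put it beyond the single-library bound.

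A relative of Vegfa was expressed beside it, whereas the paralogue of Ddit4 was hardly detected. Vegfb, a relative of Vegfa that binds the receptor FLT1, had 60.1 TPM in replicate 1 and 30.9 TPM in replicate 2. It exceeded Vegfa in each library by 0.86 ± 0.16 on the log2(TPM + 1) scale (n = 2), which was within the bound. Ddit4l, that paralogue, had 0.060 TPM in replicate 1 and 0.020 TPM in replicate 2, below Ddit4 by -3.53 ± 0.29 on the same scale (n = 2) and beyond the bound.

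By mean TPM the order was Arnt, Egln2, Vegfa, Egln1, Hif1a, Hif1an, Ddit4, Vhl, Epas1 and Egln3. Most of this order was not resolved: of the 9 steps between neighbours, 8 were within the bound and 1 was beyond it, from Vhl to Epas1, at 3.12 ± 0.69 on the log2(TPM + 1) scale (n = 2). The step from Egln2 to Vegfa, at 1.22 ± 1.15, was just within the bound. It was beyond the robust bound of 0.98, beyond the bound with 1 length per gene (1.29) and, from replicate 2 alone (2.04), beyond the single-library bound. In 4 of the 9 steps the neighbours changed places between the libraries, for example Arnt and Egln2, whose difference was 0.95 in replicate 1 and -0.41 in replicate 2. Of the 12 pairs compared, 8 were beyond the bound and all 12 had the same direction in both libraries. The 8 include every pair that set a gene under 1 TPM (Epas1, Arnt2, Egln3 or Ddit4l) against an expressed gene. No share over other pairs of genes is given, so these counts are a description only.

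For 3 of the 10 genes the libraries gave the largest share of TPM to different transcripts, with a shorter one leading in replicate 1. By counts, which are not divided by length, the same long transcript held the most in both libraries for each of the 3. The leading transcript below is the one with the largest share of TPM. Among the 6 genes with several annotated transcripts, 3 had the same leading transcript in both libraries and 3, Hif1a, Arnt and Vegfa, did not; over protein-coding genes with several transcripts and at least 100 counts in each library, 70.0% had the same leader. The other 4 genes have 1 transcript in the tables.

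**Figure D2:**
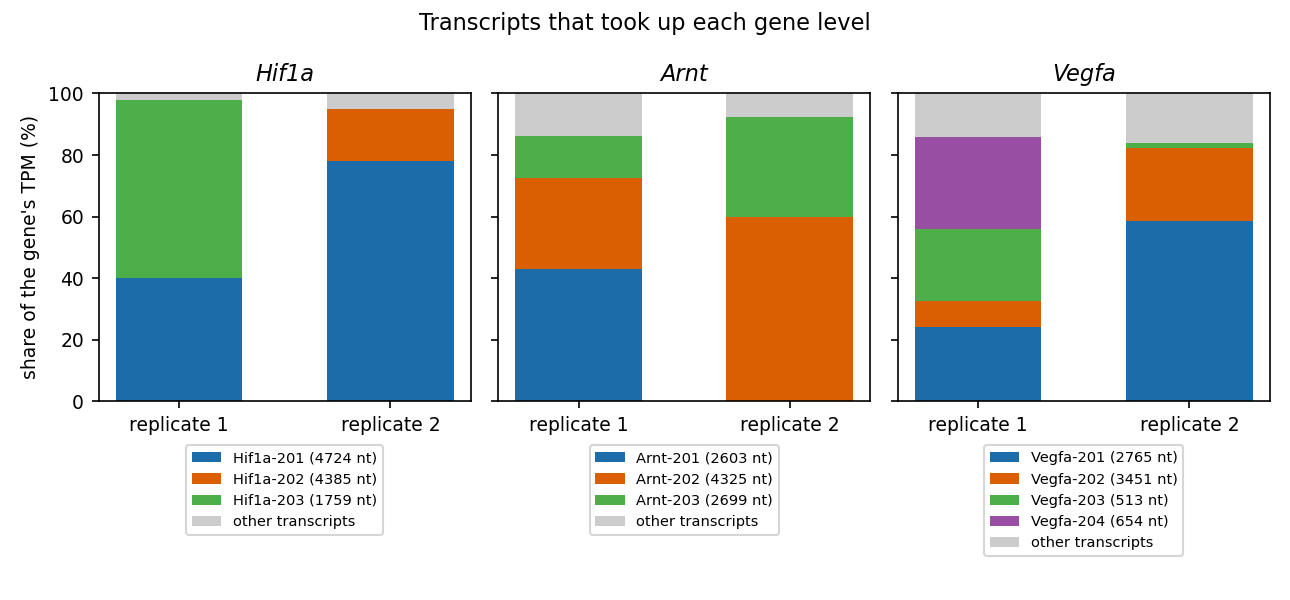
Share of the TPM of Hif1a, Arnt and Vegfa (vertical axis, percent) that the authors' tables assigned to each named transcript in replicate 1 and replicate 2, with transcript lengths in the legends and all remaining transcripts in grey. Hif1a-203, Arnt-201 and Vegfa-204 took 57.8%, 42.9% and 30.0% in replicate 1, and each took 0% in replicate 2.

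In Hif1a, the transcript Hif1a-203 (1759 nt, 6 exons, 774 coding bases) took 57.8% of TPM from 388 counts in replicate 1 and 0% from 0 counts in replicate 2. The long transcript Hif1a-201 (4724 nt, 15 exons, 2508 coding bases) took 40.0% from 731 counts in replicate 1 and 78.2% from 3284 counts in replicate 2. The long forms with the LXXLAP codons shown above thus held the larger part of the counts in each library, while their share of TPM differed. Hif1a-202, a long form that also holds 2 LXXLAP matches, at proline codons 390 and 551, took 0% in replicate 1 and 16.8% in replicate 2 (654 counts). Hif1a-202 has 810 coding codons against 836 in Hif1a-201. Its first LXXLAP proline is at codon 390 and not 402, so the forms also differ before that site. The stretch below is thus part of their coding difference. Hif1a-202 lacks this coding stretch of Hif1a-201, printed 5′ to 3′ on the plus strand of GRCm38:
Hif1a-201 stretch, chr12:73941688-73941729: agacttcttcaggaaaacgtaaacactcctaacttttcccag

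In Arnt, Arnt-201 (2603 nt) took 42.9% of TPM from 2374 counts in replicate 1 and 0% in replicate 2. Arnt-202 (4325 nt) took 29.6% from 2741 counts in replicate 1 and 60.0% from 5698 counts in replicate 2. Arnt-203 (2699 nt) took 13.8% in replicate 1 and 32.2% in replicate 2. By share of TPM the long form Arnt-202 thus led in replicate 2 only, whereas it held the most counts in each library. The 45-base coding exon below is in Arnt-203 and not in Arnt-202, and it is shown as a coding difference between the forms that held most of Arnt in replicate 2.
Arnt exon, chr3:95466793-95466837, plus strand: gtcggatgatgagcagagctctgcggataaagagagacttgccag

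The Vegfa forms differ in part by exons that encode the stretches by which VEGFA binds heparin and neuropilin. These exons are shown because the libraries divided Vegfa between transcripts with and without them. Both exons are given 5′ to 3′ on the minus strand of GRCm38, in lower case throughout.
Vegfa exon of 72 bases, chr17:46022277-46022348: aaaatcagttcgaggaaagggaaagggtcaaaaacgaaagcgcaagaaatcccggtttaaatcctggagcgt
Vegfa exon of 132 bases, chr17:46020991-46021122: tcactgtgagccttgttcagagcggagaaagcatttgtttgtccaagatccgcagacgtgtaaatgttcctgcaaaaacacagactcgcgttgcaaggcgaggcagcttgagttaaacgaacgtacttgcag
Vegfa-201 (2765 nt), which has neither exon, took 24.1% of TPM from 547 counts in replicate 1 and 58.6% from 1098 counts in replicate 2. Vegfa-202 (3451 nt), with the 132-base exon and not the 72-base one, took 8.58% from 243 counts in replicate 1 and 23.8% from 557 counts in replicate 2. It has 1104 coding bases against 438 in Vegfa-201, so the 132-base exon is only part of their coding difference. The 2 long transcripts Vegfa-201 and Vegfa-202 thus had the larger shares of TPM in replicate 2, and they held the most counts in each library. Vegfa-204 (654 nt), with the 132-base exon and a shorter version of the other, took 30.0% from 154 counts in replicate 1 and 0% in replicate 2. Vegfa-203 (513 nt), with the 72-base exon alone, took 23.2% from 92.2 counts in replicate 1 and 1.52% from 4.81 counts in replicate 2.

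The remaining genes with several transcripts each kept 1 leading transcript. Vhl-201 took 100% in replicate 1 and 93.0% in replicate 2, Egln2-201 90.1% and 95.8%, and Hif1an-201 89.6% and 98.7%, in the same order of libraries. Such shares are estimates from reads of 36 and 55 nt, which can fit several transcripts of a gene, and the cause of the different shares was not tested.

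Since TPM divides by the length of the transcripts assigned, the different transcript shares carried over to the gene levels. The effective length of Hif1a was 2882 nt in replicate 1 and 4403 nt in replicate 2, that of Vegfa 1380 and 2490 nt, and that of Arnt 2958 and 3647 nt, in the same order. With 1 length per gene in both libraries, Hif1a had 13.6 TPM in replicate 1 and 25.4 TPM in replicate 2, so its libraries moved apart. Vegfa had 26.1 TPM and 20.8 TPM on that scale, so its libraries came together, and Arnt had 85.0 TPM and 57.4 TPM.

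Counts scaled by library size (edgeR's TMM method) put no expressed gene of the set at 2-fold or more between the libraries: 0 of 8 tested, beside 29.5% of 12414 tested genes. Of these 12414, 16.3% were 2-fold or more higher in replicate 2 and 13.2% in replicate 1. The median log2 ratio, replicate 2 over replicate 1, of all tested genes was 0.02. On this scale Hif1a had the widest ratio at 0.91, followed by Hif1an at 0.83, Vhl at 0.65, Egln2 at 0.57, Arnt at -0.56, Ddit4 at 0.42, Vegfa at -0.32 and Egln1 at 0.25. Hif1a and Hif1an sat near the 2-fold limit: DESeq2 size factors, which moved the median of all tested genes to 0.27, put them past it, at 1.16 and 1.08. The TPM scale instead put Vegfa past it, at -1.22, and gave Hif1a 0.25. GC content moved with the ratio of Hif1a, whose transcripts hold 41.0% GC: with the trend of ratio on GC over all tested genes subtracted, its ratio was -0.13. The part of GC content in that ratio was not tested further.

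**Figure D3:**
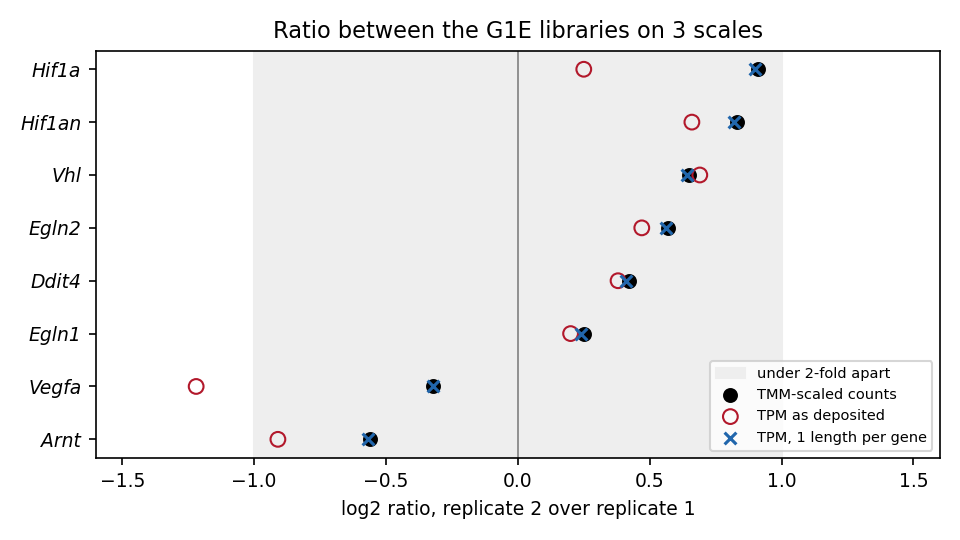
Log2 ratio of replicate 2 over replicate 1 (horizontal axis) for the 8 genes with at least 50 counts, from TMM-scaled counts (filled circles), TPM as deposited (open circles) and TPM with 1 length per gene (crosses), with ratios under 2-fold shaded. All 8 filled circles lie in the shaded band, and the open circle of Vegfa lies outside it at -1.22.

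Lists of pathway genes place the 10 in their surroundings, and a list is described by its counts and its median alone. Each count at 1 TPM in both libraries is to be read against the share of 42.5% over all protein-coding genes. Of 14 HIF hydroxylases and other genes that alter HIF stability, the 4 hydroxylases of the set included, 13 reached 1 TPM in both libraries, and the median was 35.0 TPM. The highest were general chaperones and scaffolds: Rack1, which can bring HIF-1 alpha to a ligase without oxygen, at 5166 ± 1215 TPM, Hsp90ab1 at 2503 ± 96.0 TPM and Hsp90aa1 at 1708 ± 341 TPM (SD, n = 2 each). Cited4, of a family that competes with HIF for the coactivators p300 and CBP, averaged 141 ± 11.1 TPM. Egln3 was the 1 gene of this list under 1 TPM.

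All 7 listed coactivators reached 1 TPM in both libraries, and their median was 37.4 TPM. Pkm, a glycolytic enzyme that can also bind HIF-1 alpha, averaged 2627 ± 288 TPM, the mediator kinase Cdk8 39.0 ± 10.2 TPM, the acetyltransferase Ep300 37.9 ± 21.4 TPM and the acetyltransferase Kat5 37.4 ± 5.28 TPM (SD, n = 2 each). Ep300 was the less even of these, with a log2 count ratio, replicate 2 over replicate 1, of -1.29.

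Of 40 known HIF target genes outside the 10, 31 reached 1 TPM in both libraries and 9 were under 1 TPM in both, with a median of 25.1 TPM, set beside 42.5% of protein-coding genes at 1 TPM and their median of 0.365 TPM. The highest were glycolytic enzymes: Gapdh had 4534 TPM in replicate 1 and 5295 TPM in replicate 2, Aldoa 3338 and 2239 TPM, Eno1 1990.2 and 2343 TPM, and Ldha 1668 and 2559.6 TPM. These enzymes are abundant in most dividing cells, and their levels alone say nothing of HIF activity. At the low end were Epo, the erythropoietin gene, with 1 count in replicate 1 and 0 in replicate 2, Pfkfb3, an activator of glycolysis, with 3 and 6 counts, and Vldlr, a lipoprotein receptor, with 17 and 0 counts. Car9, the carbonic anhydrase often used as a marker of hypoxia, which was singled out after its value was seen, had 0.10 TPM in replicate 1 and 0.130 TPM in replicate 2. Of the 31 targets with enough counts, 4 were 2-fold or more higher in replicate 2 and 7 in replicate 1, against the shares of 16.3% and 13.2% over all tested genes.

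Vegfa was expressed in cells whose VEGF receptors stayed under 1 TPM. Of 10 listed genes of the VEGF family and its receptors, Vegfa and Vegfb reached 1 TPM in both libraries and 8 were under 1 TPM in both, with a median of 0.117 TPM. Nrp2, a co-receptor, had 0.740 TPM in replicate 1 and 0.060 TPM in replicate 2. Flt1, a receptor, had 0.530 TPM in replicate 1 and 0.040 TPM in replicate 2. Kdr, the main signalling receptor of VEGFA, had 0.120 TPM in replicate 1 and 0.090 TPM in replicate 2. Flt1 and Nrp2 were both higher in replicate 1, as were the sums of the endothelial and fibroblast markers given above, though not each endothelial marker.

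On the path from Ddit4 to mTORC1, 12 of 13 listed genes reached 1 TPM in both libraries, against 42.5% of protein-coding genes. The list includes Ddit4 itself and its paralogue Ddit4l. Ddit4l was the exception, and the median of the list was 22.9 TPM. The translation repressor Eif4ebp1, an mTORC1 substrate, averaged 437 ± 206 TPM and Txnip, a partner of REDD1, 128 ± 112 TPM. The mTORC1 subunits Akt1s1 and Rptor averaged 51.8 ± 7.16 TPM and 44.4 ± 26.7 TPM (SD, n = 2 each). By counts, 2 of the 12 tested genes of this list were 2-fold or more apart between the libraries, against 29.5% of all tested genes. As log2 of replicate 2 over replicate 1, Txnip stood at -1.02 and Rheb at 1.12. Rheb, the GTPase that activates mTORC1, was picked after its value was seen.

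**Figure D4:**
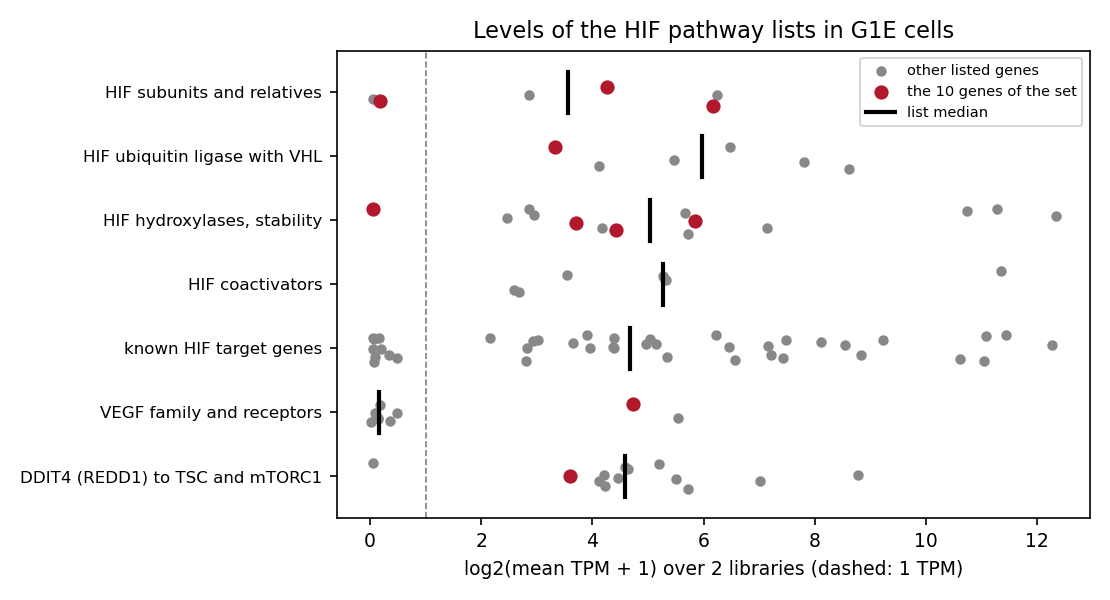
Mean level over the 2 libraries, as log2(mean TPM + 1), of every gene in 7 lists of the HIF pathway, with the 10 genes of the set in red, other listed genes in grey, the list median as a black bar and 1 TPM as a dashed line. The VEGF family and receptors have the 1 median left of the dashed line, at 0.117 TPM, and the other 6 medians lie between 12.3 and 65.9 TPM.

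HIF binds DNA at a short core, and RefSeq promoters (GRCm38.p6, 250 bases before to 50 after the start) were searched for ACGTG on both strands. Of the 10 genes, 9 had a promoter entry, 11 entries in all, and Epas1 had none. The core was in 6 of 11 entries (54.5%), of 6 genes, against 19.6% of all 32851 promoters and 27.1% of those of expressed protein-coding genes. The 11 entries are few and include a second entry each for Egln2 and Vegfa. Their GC content reached 86.0% (Egln1), and no background of promoters with like GC content was used. Whether the higher share is a trait of the set was therefore not tested. The other form of the core, GCGTG, was in 54.5% of the 11 entries, in 32.4% of all promoters and in 53.3% of those of expressed protein-coding genes, so the share of the set was near that background. The palindrome CACGTG counts as 2 overlapping matches and is also the binding word of factors such as MYC and USF. The promoters of Egln1, expressed in both libraries, and Egln3, hardly detected, are shown because both hold ACGTG once, in capitals. The Egln1 promoter also holds 1 GCGTG, left in lower case, and the Egln3 promoter holds 0.
Egln1, chr8:124949205-124949504, minus strand: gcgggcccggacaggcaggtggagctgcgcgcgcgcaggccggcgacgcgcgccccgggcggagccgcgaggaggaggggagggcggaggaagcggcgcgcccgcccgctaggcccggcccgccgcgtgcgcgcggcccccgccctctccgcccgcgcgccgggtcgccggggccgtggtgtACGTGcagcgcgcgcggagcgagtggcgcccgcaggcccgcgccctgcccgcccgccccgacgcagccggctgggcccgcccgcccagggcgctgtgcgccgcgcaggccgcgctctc
Egln3, chr12:54203825-54204124, minus strand: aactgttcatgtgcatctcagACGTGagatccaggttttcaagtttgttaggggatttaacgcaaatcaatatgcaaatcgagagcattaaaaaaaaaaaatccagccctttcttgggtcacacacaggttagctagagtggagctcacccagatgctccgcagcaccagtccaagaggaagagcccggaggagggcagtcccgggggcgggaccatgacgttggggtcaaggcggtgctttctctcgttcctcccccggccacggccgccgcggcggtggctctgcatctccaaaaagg
The ACGTG match lay at position -68 from the start of Egln1 and at -229 from that of Egln3. ACGTG thus stood before a gene at 20.5 TPM and before another at 0.040 TPM on average, and a match of letters is neither a binding site nor a cause. Ddit4 held 1 ACGTG match, Hif1a and Egln2 held 3 each and Vegfa held 1 in an inner promoter entry, while the entries of Arnt, Vhl and Hif1an held 0.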

How the data were processed

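Poly(A) RNA of 2 G1E libraries of 1 group was analysed from the gene and transcript tables, made per library and not pooled. Per the file headers and deposited notes, the tables hold quantifications of transcriptome alignments to mm10 (GRCm38); the quantifier is not given in the sources used here, and the column names are those of RSEM. Expected counts were deposited as estimated reads, without normalisation. TPM values were deposited per effective length and scaled to a fixed total per library; FPKM, the signal columns with the posterior mean of TPM, and the percent of a gene's TPM per transcript were used as deposited by the authors. Entries that name no gene (26345, holding 0.0363% of counts in replicate 1 and 0.00942% in replicate 2) were left out.

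Names, positions and transcript sequences came from GENCODE M21 of GRCm38, matched on identifiers without version (42462 of 43346 matched). Counts were rounded and scaled by TMM (edgeR 4.0.16, R 4.3.3, over 12457 genes kept by its default filter), with factors of 0.982 and 1.02, and ratios were taken for genes with at least 50 counts in total after adding 0.5. DESeq2 1.42.0 supplied alternative size factors. No count model was tested, since 1 library stands against 1. The remaining steps ran in Python 3.11.15 with numpy 2.4.6, pandas 2.3.3, statsmodels 0.14.6 and scipy 1.17.1. The scaling steps were tested on simulated data.

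The members and lists were chosen with earlier results of these data known. The text names the 10 genes, the genes of 12 pairs and, of each list, up to 4 of highest mean TPM and up to 3 under 1 TPM; any others are said to be chosen after their values were seen, or stand in an example of markers. The protein comparison that was planned was not made, and coding DNA was searched for LXXLAP instead.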

Additional observations from a re-analysis of the deposited data

How the results depend on the processing

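The 6 kinds of result were recomputed under other settings, and no value past its threshold changed direction; among values within it, 4 steps between neighbours changed sign with the library left out, and the Hif1a ratio of 0.91 became -0.13 with the GC trend subtracted. The count of 8 expressed genes was 8 under TPM rescaled over protein-coding genes, posterior mean TPM, thresholds of 0.5 and 5 TPM and without either replicate, and 9 above 0 TPM. The median of 15.2 TPM was 19.3 with rescaled TPM, 11.7 as FPKM, and 13.1 to 15.1 leaving out each replicate in turn. The 8 pairs beyond the bound were 10 with the robust bound, which added Vhl under Egln1 and Ddit4 under Vegfa, and 5 to 8 leaving out each replicate in turn. With 1 library left, differences were set against the single-library bound, which is wider than 1.23. Without replicate 1, Arnt and Hif3a over Hif1a (1.26 and 1.35) and Egln1 under Egln2 (-1.54) were within that wider bound. Without replicate 2, Egln1 under Egln2 (-1.27) was within the wider bound and Ddit4 under Vegfa (-1.79) was beyond it. The step from Egln2 to Vegfa was beyond the bound with the robust estimate, with 1 length per gene (1.29) and without replicate 1 (2.04). The 0 genes 2-fold apart became 2 with DESeq2 size factors and 2 with TMM without the expression filter (both Hif1a and Hif1an), 1 with TPM as deposited and 1 with rescaled TPM (both Vegfa), 1 with no filter on counts (Epas1) and 3 at 1.5-fold (Hif1a, Vhl and Hif1an). DESeq2 size factors and unfiltered TMM shifted the median of all tested genes by 0.27 and 0.28, and the filtered TMM by 0.02. The 6 genes with the same leading transcript were 6 from posterior means, and the 75 list entries at 1 TPM were 67 at 5 TPM. The settings with 1 length per gene, with TMM without the filter and with added Hif3a transcripts were chosen after seeing the data. No paired analysis was possible because there was 1 group. With 2 libraries, differences below the bound of 1.23 were not resolved, and 33 counts or fewer (Epas1, Egln3) give no ratio between the libraries.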

Other observations

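Other values of the surrounding pathway were uneven between the libraries, and the genes in this paragraph were chosen after their values were seen, except where a list placed them among its highest. In the VHL ligase, Eloc had 306 counts in replicate 1 and 2978 in replicate 2, a log2 count ratio, replicate 2 over replicate 1, of 2.37. Cul2, the cullin scaffold of the same ligase, had 436 counts in replicate 1 and 2505 in replicate 2, a ratio of 1.62. Both were thus higher in replicate 2, while Elob, the partner of Eloc, had a ratio of -0.61 and Rbx1 of 0.03. Among the coactivators, Crebbp had 3804 counts in replicate 1 and 2011 in replicate 2, a ratio of -1.83. Of the HIF targets, Tfrc, the transferrin receptor by which erythroid cells take up iron, had 3093 counts in replicate 1 and 28101 in replicate 2, a ratio of 2.28, and Ndrg1, a stress-induced gene, had 861 counts in replicate 1 and 343 in replicate 2, a ratio of -2.23. The ratios of Eloc, Cul2, Crebbp, Tfrc and Ndrg1 exceed in size the widest one among the 8 tested genes of the set, 0.91 for Hif1a. Over all tested genes 29.5% were as far apart as 2-fold, so such ratios were common in these libraries.

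The mitophagy receptors Bnip3 and Bnip3l, known HIF targets of which Bnip3l clears mitochondria from maturing red cells, were both well expressed, and were also chosen after their values were seen. Bnip3 had 126 TPM in replicate 1 and 159 TPM in replicate 2. Bnip3l had 324 TPM in replicate 1 and 589 TPM in replicate 2. Slc2a1, a glucose transporter, had 94.7 TPM in replicate 1 and 52.7 TPM in replicate 2. Pdk1, which limits entry of pyruvate into mitochondria, had 70.5 TPM in replicate 1 and 104 TPM in replicate 2. Epo, Car9 and Egln3, other genes that HIF is known to induce, had 0.030, 0.115 and 0.040 TPM on average. The higher genes, Slc2a1 and Pdk1 included, were picked after their values were seen, and these lower ones stand at the low end. The gap between them therefore follows from the choice and shows no split among HIF targets.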
